A study of Homo sapiens with 4 samples.

Results

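The genes described here encode the enzymes that make, recycle and interconvert purine and pyrimidine nucleotides. They were chosen by name from the textbook pathways; the rule uses no measured value, but the list was drawn up with earlier results of these data known. Of 38 genes listed, 37 had a row among the 26733 genes of the deposited table, and CTPS2 was not analysed here. All 37 passed the filter on low counts. Transcripts were measured by RNA sequencing of polyadenylated RNA from Jurkat cells, an established human line of T-cell acute lymphoblastic leukaemia. In 2 libraries the cells had received GNE987 at a labelled dose of 25 nmol, given without a volume, and 2 libraries came from cells labelled as not treated, with no vehicle named. The stated time was 24 h for both groups. GNE987 is a bifunctional compound that recruits the VHL ubiquitin ligase to BET bromodomain proteins, which leads to their degradation. All libraries came from this 1 line, and the labels do not say whether replicates were separate cultures, so the p-values reflect the scatter among these libraries alone, and that scatter could be technical.

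A cell builds purines stepwise on ribose phosphate, from the activated sugar PRPP to inosine monophosphate, which then branches to adenine and guanine nucleotides. Pyrimidines are assembled as a free ring that is afterwards joined to PRPP. Ribonucleotide reductase turns ribonucleotides into the deoxyribonucleotides (dNTPs) used for DNA, and salvage enzymes recover free bases and nucleosides. Dividing lymphoid cells draw heavily on these routes, and several of the enzymes are targets of drugs used in leukaemia.

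Total counts ran from 16041022 to 18938465 per library. Levels are given as CPM (counts scaled to a common library total by TMM, edgeR's trimmed mean of M-values), and every member had at least 22 counts in each library. The libraries of untreated cells differed: for 34 of 37 members, and for 81.8% of all tested genes, replicate 2 fell between replicate 1 and the treated mean. The T-cell markers of the line were present, with a summed level of 3177 and 3008 CPM in the untreated libraries and 1629 and 1776 CPM with GNE987, and 10 of 12 fell. Myeloid markers summed to 0.808 CPM in untreated replicate 1, 32.9 CPM in untreated replicate 2 and 158 and 164 CPM with GNE987, where 4 of 6 tested markers rose. B-cell markers summed to 73.3 and 79.1 CPM untreated and 101 and 112 CPM with GNE987 (1 of 2 tested rose, 1 fell), and erythroid ones to 15.4 and 22.1 and to 35.9 and 39.3 CPM (2 of 2 rose). The 1 epithelial marker tested fell, the 1 fibroblast marker rose, and both lists summed to less than 10 CPM in each library. The part of these other markers in the results below was not tested. Beside these marker counts, 37.2% of all tested genes fell and 34.4% rose (71.6% called). In bulk RNA, fewer cells of a kind and less RNA per cell cannot be told apart.

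With GNE987, 26 of 37 genes fell and 3 rose, so 29 were called, beside 71.6% of all tested genes. Log2 fold changes, treated over untreated, ranged from -3.34 for UCK2 to 1.39 for GUK1, with a median of -1.34 against -0.03 over all 15910 genes tested. The share of members that fell was 70.3%, beside 37.2% of all tested genes, and 34.4% of all tested genes rose. A fall of at least 2-fold was found for 22 members (27.6% of all tested genes) and one of at least 4-fold for 13 (13.8%). Only GUK1 rose at least 2-fold (24.6% of all tested genes). The treated libraries lay below both untreated ones for 29 members and above both for 7, as they did for 46.6% and 44.6% of all tested genes, or 91.1% in either direction. TYMS was the 1 member whose groups overlapped. A call is an adjusted p below 0.05 in edgeR's quasi-likelihood test, adjusted by Benjamini-Hochberg over all tested genes, and the adjusted p-values that follow come from it.

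Scaling by library size alone changed the sign or the call of 10 of 37 members, 2 of the 3 called rises (IMPDH2 and DGUOK) among them. RLE scaling changed the calls of PPAT and DUT. With library size alone in place of TMM the median of all tested genes was -0.41 and that of the members -1.71, and 30 members were lower and 1 higher (31 called), beside 45.0% and 25.8% of all tested genes (70.8% called). Without untreated replicate 2 the members' median was -1.37, with 27 lower and 6 higher (33 called). Over all tested genes that setting gave a median of 0.01, with 40.1% lower and 41.1% higher (81.2% called). Together the members took 0.682% and 0.607% of all counts in the untreated libraries and 0.390% and 0.383% with GNE987.

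**Figure D1:**
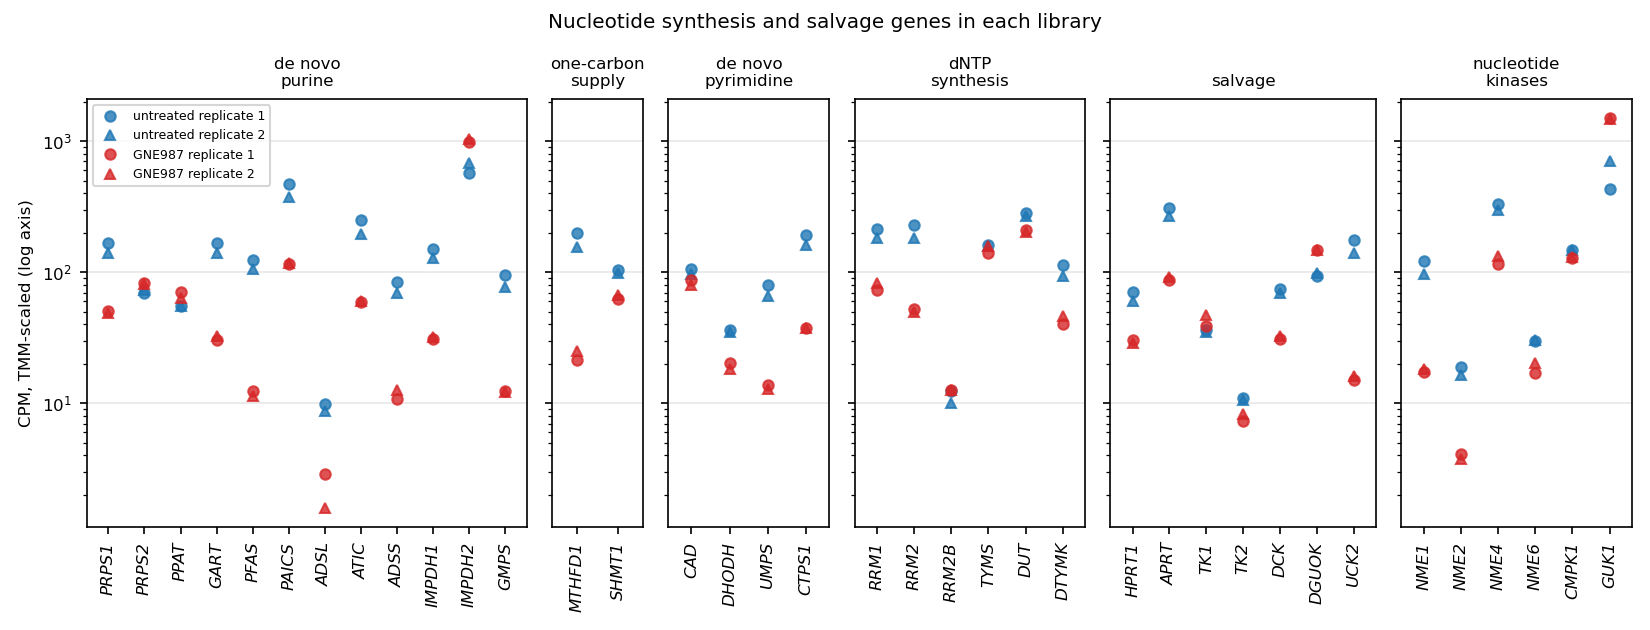
CPM (log axis) of each of the 37 genes in the 4 libraries, grouped by role; blue marks untreated and red GNE987 libraries. Red points lie below blue ones for 29 genes, and IMPDH2, DGUOK and GUK1 stand out with red points above.

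The purine route fell at most of its steps but not at its first committed one. De novo purine synthesis had 12 members, of which 9 fell and 1 rose, beside 37.2% and 34.4% of all tested genes (71.6% called). Their median was -1.96. The route starts with PRPP synthetase, encoded by PRPS1 and PRPS2. PRPS1 had 166 and 139.7 CPM in the untreated libraries and 50.9 and 48.8 CPM with GNE987, a log2 fold change of -1.62 ± 0.14 (SE; adjusted p = 0.000558). Its treated values were close to each other and far below both untreated ones. PRPS2 was at 68.9 and 73.5 CPM untreated and at 82.2 and 81.1 CPM with GNE987, a change of 0.20 ± 0.11 that did not pass (adjusted p = 0.15). PRPS2 passed without untreated replicate 2 (0.30, adjusted p = 0.00677), and with library size alone its sign turned (-0.17).

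PPAT encodes the amidotransferase that commits PRPP to purines and is the feedback-controlled step. It had 55.0 and 55.4 CPM untreated and 71.2 and 63.4 CPM with GNE987, a log2 fold change of 0.29 ± 0.12 (adjusted p = 0.0715). The treated values were the higher ones, yet the difference did not pass. It passed with RLE scaling (adjusted p = 0.0311). The value was 0.28 and 0.34 without untreated replicate 1 or 2, and -0.09 with library size alone. PAICS, which carries out a pair of later steps of the ring assembly, lies next to PPAT and is read in the opposite direction. PAICS had 471 and 376 CPM untreated and 116 and 118 CPM with GNE987, a change of -1.86 ± 0.16 (adjusted p = 0.000588). The starts of these neighbours are 126 bases apart in GENCODE 29, PPAT at the end of chr4:56393362-56435615 on the minus strand and PAICS at the beginning of chr4:56435741-56464579 on the plus strand (GRCh38). The stretch between both starts, chr4:56435616-56435740, is shown on its plus strand because 2 genes with such unlike values start at its ends. Capitals mark the letters GGGCGG, known as a GC box, and 76.0% of the 125 bases are G or C.
PPAT-PAICS: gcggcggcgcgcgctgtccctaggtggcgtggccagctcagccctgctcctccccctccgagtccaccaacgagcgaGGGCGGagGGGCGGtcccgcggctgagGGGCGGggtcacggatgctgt
The stretch holds 3 GC boxes. The annotated spans of the pair do not overlap.

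Between PPAT and inosine monophosphate every other member fell. PFAS, a glutamine-using synthase in the middle of the route, had the lowest log2 fold change of the purine genes. It had 124 and 105 CPM untreated and 12.3 and 11.3 CPM with GNE987, a change of -3.28 ± 0.15 or 9.71-fold (adjusted p = 0.000292). GART is a single protein with several activities of the route, the folate-dependent first formyl transfer among them. It was at 166 and 141 CPM untreated and at 30.7 and 32.5 CPM with GNE987 (-2.28 ± 0.14, adjusted p = 0.000309). ATIC, which closes the purine ring, had 249 and 195 CPM untreated and 59.5 and 60.4 CPM with GNE987 (-1.89 ± 0.16, adjusted p = 0.000581). In each of these genes the treated pair differed by far less than the distance to the untreated pair. ADSL, the lyase used both in the ring assembly and on the branch to AMP, was the least abundant member per length. It had 9.83 and 8.69 CPM untreated and 2.89 and 1.59 CPM with GNE987 (-2.04 ± 0.34, adjusted p = 0.00424), and its standard error was the largest among the members. ADSL shares 1344 exonic bases on the same strand with AL022238.4, where reads cannot be assigned to either gene. How the counter treated such reads is not stated, so the level of ADSL may be understated or overstated.

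Past the branch point the genes of the adenine arm fell, and those of the guanine arm went both ways. ADSS, which starts the conversion to AMP, went from 84.0 and 68.9 CPM to 10.8 and 12.5 CPM with GNE987 (-2.71 ± 0.16, adjusted p = 0.000309). GMPS, which makes GMP, went from 95.2 and 77.1 CPM to 12.5 and 12.2 CPM (-2.80 ± 0.15, adjusted p = 0.000295). The step before GMPS, oxidation of inosine monophosphate, is the rate-limiting one of guanine nucleotide synthesis and has a pair of isoenzymes, whose genes went opposite ways. IMPDH1 (chr7:128392277-128410252) had 150.3 and 128 CPM untreated and 31.1 and 32.0 CPM with GNE987, a log2 fold change of -2.14 ± 0.13 (adjusted p = 0.000316). IMPDH2 (chr3:49024325-49029408), the form known to predominate in dividing lymphocytes, had 569 and 683 CPM untreated and 983 and 1038 CPM with GNE987, a change of 0.69 ± 0.15 (adjusted p = 0.01). All treated values of IMPDH2 were above all untreated ones. The rise of IMPDH2 did not pass with library size alone (0.32, adjusted p = 0.0569) or without GNE987 replicate 1 or 2 (adjusted p = 0.0739 and 0.0922).

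**Figure D2:**
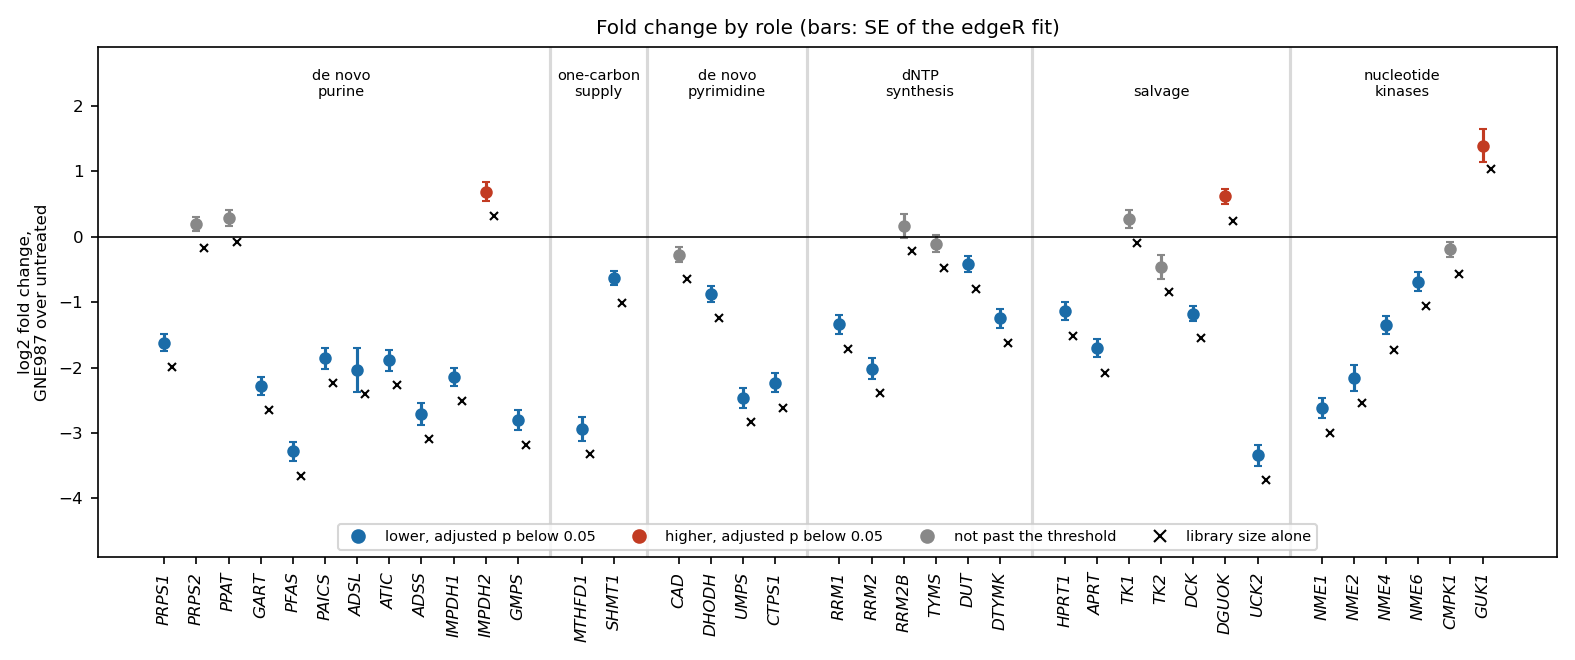
Log2 fold change, GNE987 over untreated, of each gene by role; circles with bars are the TMM-scaled estimates with their SE, and crosses the values with library size alone. Most genes lie below 0, down to -3.34 for UCK2, and crosses of PRPS2, PPAT, RRM2B and TK1 fall on the other side of 0.

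One-carbon units carried by folate feed the purine ring and thymidylate. Both one-carbon genes among the members fell, beside 37.2% of all tested genes. MTHFD1, the cytosolic enzyme with several folate activities, had 200.5 and 155 CPM untreated and 21.3 and 24.9 CPM with GNE987 (-2.94 ± 0.18, adjusted p = 0.000316). SHMT1, the cytosolic serine hydroxymethyltransferase, changed less, from 104 and 98.3 CPM to 63.0 and 67.2 CPM (-0.63 ± 0.11, adjusted p = 0.005). SHMT1 did not pass without GNE987 replicate 1 (-0.59) or 2 (-0.68), settings in which fewer of all tested genes were called too. ZBTB25, which overlaps exons of MTHFD1 on the other strand over 178 bases, rose by 1.26 ± 0.16 (adjusted p = 0.00189). SMCR8, which overlaps exons of SHMT1 over 196 bases on the other strand, fell as SHMT1 did (-0.77 ± 0.14, adjusted p = 0.00567), and unstranded reads of these stretches cannot be assigned.

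In pyrimidine synthesis 3 of 4 measured genes fell, beside 37.2% of all tested genes (71.6% called), with a median of -1.55. CAD, the large protein with the first activities and the regulated entry of the route, had 105 and 96.6 CPM untreated and 86.7 and 80.2 CPM with GNE987. Its change of -0.27 ± 0.12 did not pass (adjusted p = 0.0834), although the treated values were the lower ones. CAD passed with library size alone (-0.65, adjusted p = 0.00742) and with no filter (-0.42, adjusted p = 0.0376), and was at -0.28 without untreated replicate 2. DHODH, the mitochondrial inner membrane enzyme that makes orotate, went from 36.0 and 34.9 CPM to 20.3 and 18.3 CPM (-0.88 ± 0.13, adjusted p = 0.00279). The later steps had lower values. UMPS, which joins orotate to PRPP and yields UMP, went from 80.5 and 65.7 CPM to 13.8 and 12.8 CPM (-2.46 ± 0.15, adjusted p = 0.000317). CTPS1, the CTP synthase on which proliferating lymphocytes are known to depend, went from 194 and 159.9 CPM to 37.5 and 37.8 CPM (-2.23 ± 0.14, adjusted p = 0.000331). Both routes thus had an entry gene, PPAT or CAD, that did not pass the threshold, and downstream genes that fell; the difference between entry and downstream genes was not tested.

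Of 6 genes of dNTP synthesis 4 fell and 0 rose, beside 37.2% and 34.4% of all tested genes (71.6% called). Their median was -0.84. Ribonucleotide reductase consists of a large subunit, RRM1, and a small one, which is RRM2 in S phase and RRM2B, a p53 target, outside it. RRM2 had 230.5 and 182 CPM untreated and 52.1 and 49.9 CPM with GNE987 (-2.02 ± 0.16, adjusted p = 0.000474). RRM1 had 212 and 181 CPM untreated and 73.3 and 82.5 CPM with GNE987 (-1.34 ± 0.14, adjusted p = 0.00118). Both subunits of the S-phase enzyme were thus lower in every treated library. RRM2B was at 12.4 and 10.1 CPM untreated and at 12.7 and 12.6 CPM with GNE987, a change of 0.16 ± 0.18 (adjusted p = 0.444) that became -0.21 with library size alone.

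The thymidine branch was split. TYMS, the thymidylate synthase, had 162 and 158 CPM untreated and 139.5 and 159 CPM with GNE987, and the groups overlapped (-0.10 ± 0.13, adjusted p = 0.486). With library size alone TYMS was lower (-0.48, adjusted p = 0.0194). TYMS shares 967 exonic bases with ENOSF1 on the other strand, at 44.8 and 44.5 CPM untreated and 42.1 and 39.0 CPM with GNE987, and unstranded reads of this stretch cannot be assigned. DTYMK, the kinase that acts on the product of TYMS, fell from 114 and 93.5 CPM to 40.5 and 46.7 CPM (-1.25 ± 0.15, adjusted p = 0.00169). DUT, which destroys dUTP and supplies dUMP, went from 284 and 268 CPM to 208 and 203 CPM (-0.42 ± 0.12, adjusted p = 0.0245). That small fall of DUT did not pass with RLE scaling, with the replicate number as a block, or without GNE987 replicate 1 or 2 (adjusted p = 0.171 and 0.196). Among 25 replication genes of S phase, listed for comparison, 15 fell and 4 rose, beside 37.2% and 34.4% of all tested genes (71.6% called). Their median was -0.77. RFC2, a clamp loader subunit, was at -3.44 ± 0.17, CDC45, a helicase cofactor, at -2.30 ± 0.13 and MCM3, a helicase subunit, at -2.66 ± 0.16. The part that a shift in cell cycle has in the dNTP values was not tested.

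Of 7 salvage genes 4 fell and 1 rose, beside 37.2% and 34.4% of all tested genes (71.6% called). Their median was -1.14. UCK2, which phosphorylates uridine and cytidine, had the lowest log2 fold change of all members. It lies at chr1:165827531-165911618 and had 176 and 139.9 CPM untreated and 14.97 and 16.2 CPM with GNE987 (-3.34 ± 0.17 or 10.1-fold, adjusted p = 0.000292). TMCO1, which starts beside UCK2 on the other strand and shares 225 exonic bases with it, rose by 0.60 ± 0.13 (adjusted p = 0.0115), and did not pass with library size alone (0.23, adjusted p = 0.183) or without GNE987 replicate 1 or 2 (adjusted p = 0.114 and 0.0875). The purine phosphoribosyltransferases fell together. APRT, which recovers adenine, went from 311 and 269 CPM to 86.6 and 91.2 CPM (-1.71 ± 0.14, adjusted p = 0.000493). HPRT1, which recovers hypoxanthine and guanine, went from 70.7 and 60.05 CPM to 30.6 and 28.8 CPM (-1.14 ± 0.13, adjusted p = 0.00155). HPRT1 is often taken as a constant reference gene in expression work, and here its treated values were less than those of either untreated library.

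Deoxynucleoside kinases went several ways. DCK, which also activates cytarabine and other nucleoside drugs, went from 74.8 and 69.1 CPM to 31.1 and 32.6 CPM (-1.18 ± 0.12, adjusted p = 0.000869). DGUOK, the mitochondrial deoxyguanosine kinase at chr2:73926826-73958961, rose from 92.9 and 98.4 CPM to 147 and 147 CPM (0.62 ± 0.11, adjusted p = 0.00567). This rise did not pass with library size alone (0.25, adjusted p = 0.131) or without GNE987 replicate 1 or 2 (adjusted p = 0.0747 and 0.0745). TK2, the mitochondrial thymidine kinase, was at 10.9 and 10.6 CPM untreated and 7.35 and 8.26 CPM with GNE987 (-0.46 ± 0.18, adjusted p = 0.0668). TK1, its cytosolic counterpart and an S-phase gene, was at 36.1 and 34.8 CPM untreated and 38.7 and 47.0 CPM with GNE987 (0.27 ± 0.14, adjusted p = 0.127). Neither thymidine kinase passed the threshold. TK2 passed with library size alone (-0.84, adjusted p = 0.013) and with no filter (-0.61, adjusted p = 0.0434). TK1 was at -0.10 with library size alone and at 0.30 and 0.30 without untreated replicate 1 or 2.

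Among 6 nucleotide kinases, which turn monophosphates and diphosphates into triphosphates, 4 fell and 1 rose, with a median of -1.02. Over all tested genes 37.2% fell and 34.4% rose (71.6% called). NME1 and NME2 encode the main cytosolic nucleoside diphosphate kinases. NME1 went from 121 and 97.4 CPM to 17.3 and 18.1 CPM (-2.62 ± 0.15, adjusted p = 0.000307) and NME2 from 18.99 and 16.4 CPM to 4.14 and 3.77 CPM (-2.16 ± 0.19, adjusted p = 0.000657). Counts of both are uncertain because the genes are close copies and share exons with the read-through gene NME1-NME2, which had at most 1.38 CPM in a library. The mitochondrial members moved the same way but less. NME4 went from 334 and 298 CPM to 116 and 132 CPM (-1.35 ± 0.14, adjusted p = 0.00105), and NME6 from 29.9 and 30.2 CPM to 17.1 and 20.3 CPM (-0.68 ± 0.14, adjusted p = 0.00838). NME6 did not pass without GNE987 replicate 1 (adjusted p = 0.0878). CMPK1, the UMP and CMP kinase, was at 149 and 147 CPM untreated and 128 and 130.1 CPM with GNE987 (-0.19 ± 0.11, adjusted p = 0.167), and it passed with library size alone (-0.57, adjusted p = 0.00839).

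GUK1, the guanylate kinase that turns GMP into GDP, had the highest log2 fold change of the members. It lies at chr1:228139962-228148984 and had 430.4 and 700.2 CPM in untreated replicates 1 and 2 and 1491 and 1472 CPM with GNE987. The treated values nearly coincided, while untreated replicate 2 was well above untreated replicate 1. The log2 fold change was 1.39 ± 0.25 (adjusted p = 0.00545), with 1.08 without untreated replicate 1 and 1.84 without untreated replicate 2. It passed in every setting tried, with adjusted p = 0.0491 and 0.0478 without GNE987 replicate 1 or 2. On the guanine branch the genes thus differed in direction, with IMPDH1 and GMPS lower and IMPDH2 and GUK1 higher.

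Pairs of genes for the same reaction were compared within each library, by the log2 ratio of the deposited FPKM values (fragments per kilobase, scaled for depth), a measure per length that no scaling between libraries can move. IMPDH1 to IMPDH2 stood at -2.32 and -2.82 in the untreated libraries and at -5.39 and -5.42 with GNE987. IMPDH1 thus made up 16.7% and 12.4% of the summed FPKM of the pair in untreated cells and 2.34% and 2.28% with GNE987, while the sum itself went from 246.7 and 274 to 358 and 379 FPKM. The PRPP synthetases changed places. PRPS1 to PRPS2 stood at 1.34 and 1.00 untreated and at -0.62 and -0.66 with GNE987, and the sum went from 88.4 and 77.8 to 48.5 and 47.5 FPKM. RRM2 to RRM2B went from 4.27 and 4.23 to 2.10 and 2.05, so RRM2 kept the higher level in all 4 libraries, at 81.1% and 80.5% of the pair with GNE987. TK1 to TK2 was 3.67 and 3.66 untreated and 4.34 and 4.45 with GNE987. The ratio NME1 to NME2 was 2.28 and 2.19 untreated and 1.68 and 1.88 with GNE987. In these 5 pairs the groups did not overlap, and for the CPM of single genes this held for 91.1% of all tested genes. Comparing 2 libraries with 2, an exact permutation test cannot give a p below 0.333, so the ratios are a description.

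**Figure D3:**
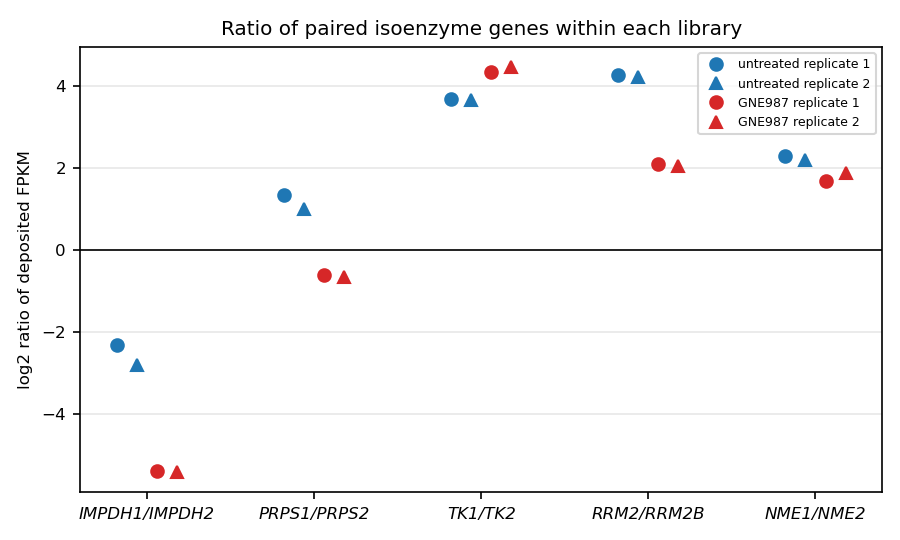
Log2 ratio of deposited FPKM between the genes of each pair, in the 4 libraries (blue untreated, red GNE987). IMPDH1/IMPDH2 falls from about -2.32 and -2.82 to -5.39 and -5.42, and PRPS1/PRPS2 crosses 0.

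Per length, IMPDH2 was the most abundant member in untreated cells with 206 and 239.7 FPKM, followed by APRT with 173 and 145 FPKM and GUK1 with 91.2 and 144 FPKM. The lower APRT value and the higher GUK1 value nearly met, while both IMPDH2 values stood above the others. With GNE987 IMPDH2 reached 349.5 and 370.4 FPKM and GUK1 311 and 308 FPKM, and APRT was at 47.4 and 50.1 FPKM. At the other end stood ADSL with 1.38 and 1.19 FPKM and TK2 with 1.52 and 1.44 FPKM in untreated cells.

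Starts shared with another gene gave further side-by-side values. DTYMK starts 94 bases from ING5, a chromatin reader gene, on the opposite strand; DTYMK fell and ING5 was at 58.9 and 60.6 CPM untreated and 62.2 and 54.0 CPM with GNE987 (-0.04 ± 0.12, adjusted p = 0.782). TK1 starts 84 bases from AFMID, and neither passed (AFMID 0.15 ± 0.13, adjusted p = 0.333). In other pairs both genes went the same way. CTC1, a telomere maintenance gene whose start overlaps PFAS, fell as PFAS did, from 26.4 and 22.1 CPM to 3.55 and 3.55 CPM (-2.77 ± 0.18, adjusted p = 0.000339). AC137630.3, an antisense gene whose start overlaps IMPDH2, rose as IMPDH2 did, from 0.494 and 0.691 CPM to 4.33 and 3.77 CPM (2.77 ± 0.37, adjusted p = 0.00227). Its exons share 93 bases with IMPDH2, where unstranded reads cannot be assigned, while PFAS and CTC1 share no annotated exon bases. TEX21P, a pseudogene that starts 45 bases from MTHFD1, rose while MTHFD1 fell (1.91 ± 0.52, adjusted p = 0.0202), at no more than 2.17 CPM in any library. The rise of TEX21P did not pass with DESeq2 (adjusted p = 0.0601) or with the replicate number as a block (adjusted p = 0.0672). CKLF, a chemokine-like gene that starts 19 bases from TK2, fell from 4.76 and 2.91 CPM to 0.131 and 0.362 CPM (-3.95 ± 0.58, adjusted p = 0.003), where the treated libraries held 2 and 5 counts, while TK2 did not pass. The read-through gene CKLF-CMTM1 did not pass (-1.25 ± 0.54, adjusted p = 0.0819). By the main test, the pairs thus went the same way, opposite ways, or had 1 gene or neither past the threshold. Exons of DCK and NME4 also overlap a gene on the same strand, MOB1B, which rose (1.14 ± 0.14, adjusted p = 0.00175), and DECR2, which did not pass (0.08 ± 0.13, adjusted p = 0.595). Same-strand exons overlap for ADSL too (AL022238.4, 1344 bases) and for RRM2 (AC007240.1, 1077 bases), and reads there cannot be assigned. GART overlaps SON by 275 exonic bases on the other strand, and SON was at 0.24 ± 0.13 (adjusted p = 0.146).

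Promoter sequences of 250 bases before and 50 after the start were found in RefSeq (GRCh38.p14) for 34 of the 37 genes. RefSeq and GENCODE starts differ for many of them, most for PAICS, whose RefSeq window lies inside the PPAT gene. By that window PAICS counts as without each motif searched below, although 3 GC boxes lie between its GENCODE start and that of PPAT. The RefSeq starts of PFAS, RRM2, TK2 and DCK lie 1671, 2041, 2422 and 1111 bases downstream of the GENCODE ones. The counts with and without a motif hold for these windows alone. CACGTG, the core letters bound by MYC and its partner MAX, occurred on either strand in 6 of 34 windows (17.6%) and in 7.43% of all 27305 windows. MYC itself, a driver of growth genes, went from 342 and 281 CPM to 15.6 and 15.6 CPM with GNE987 (-4.32 ± 0.17, adjusted p = 0.000292), and its part in the values of the members was not tested. Of the 6 genes with a match 5 fell (median -1.53), and of the 28 without one 20 fell and 2 rose (median -1.34). The sites are shown with 12 bases on each side, 5′ to 3′ on the strand of the gene, because they are the matches in this set; CACGTG is in capitals, and the remaining site, in NME1, lies too near the end of its window to be shown.
PPAT: aacggagatttcCACGTGcagcaaatacag
ATIC upstream: gggccggcgggcCACGTGataagcccggaa
ATIC downstream: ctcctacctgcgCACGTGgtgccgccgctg
MTHFD1: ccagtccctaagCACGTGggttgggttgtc
DHODH: gccgctactgcgCACGTGcacccaaccaga
DCK: cgccccggccttCACGTGacctggcgtgcg
The sites lie at chr4:56435780-56435809 (PPAT, minus strand, within the annotated PAICS gene), chr2:215312001-215312030 and chr2:215312076-215312105 (ATIC), chr14:64388326-64388355 (MTHFD1), chr16:72008573-72008602 (DHODH) and chr4:70993521-70993550 (DCK), all others on the plus strand. A match is a description of letters and not evidence of binding. Of the 6, PPAT alone did not pass the threshold.

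Other motifs were searched on both strands in the same windows. The E2F letters TTTCCCGC, TTTCGCGC, TTTGCCGC and TTTGGCGC, known from S-phase genes, occurred in 4 of 34 windows (11.8%, against 3.33% of all windows), those of PRPS2, TYMS, DCK and NME6. These 4 genes had a median of -0.39, with 2 lower, and of the 30 genes without the letters 23 fell and 2 rose (median -1.66). CCAAT, bound by NF-Y, occurred in 13 windows (38.2% against 35.7%), the NRF1 motif in 4 (11.8% against 6.28%) and GGGCGG in 24 (70.6% against 44.6%). The 4 genes with the NRF1 letters, MTHFD1, CTPS1, DTYMK and APRT, all fell (median -1.97), as did 21 of the 30 without them, of which 2 rose (median -1.26). With CCAAT 11 of 13 fell and 1 rose (median -1.35), and without it 14 of 21 fell and 1 rose (median -1.18). With GGGCGG 18 of 24 fell and 2 rose (median -1.29), and without it 7 of 10 fell and 0 rose (median -1.94). PAICS is counted among these 10 by its RefSeq window. The motifs were chosen with results of these data known. The shares of all windows, that for CACGTG included, were not limited to genes tested here. Every member passed the filter on low counts, so those shares and the member shares are not directly comparable.

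Further genes of nucleotide metabolism were listed by their known role. Of 17 tested genes of folate and one-carbon supply 9 fell and 3 rose, beside 37.2% and 34.4% of all tested genes (71.6% called). Their median was -0.44. SLC19A1, the reduced folate carrier that also takes up methotrexate, went from 142 and 121 CPM to 7.68 and 9.86 CPM (-3.91 ± 0.18, adjusted p = 0.000292). MTHFD1L, the mitochondrial formate producer, was at -2.73 ± 0.17 and PSPH, which completes serine synthesis, at -1.48 ± 0.13 (adjusted p = 0.000309 and 0.000653). With GNE987 replicate 1 left out fewer genes of this list were called, and fewer of all tested genes as well.

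Of 16 tested genes of breakdown and dephosphorylation 9 fell and 4 rose (median -0.80), beside 37.2% and 34.4% of all tested genes (71.6% called). ADA, the adenosine deaminase whose loss causes immunodeficiency, was the most abundant of the named ones and went from 1361 and 1089 CPM to 157 and 180.2 CPM (-2.86 ± 0.18, adjusted p = 0.000321). The nucleotidase gene NT5C3B was at -4.05 ± 0.17 and AMPD3, an AMP deaminase, at -2.41 ± 0.17 (adjusted p = 0.000292 and 0.000379). Without GNE987 replicate 1 or 2 fewer genes of this list were called, and fewer of all tested genes as well.

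Of 20 tested genes of other salvage, kinases and cleaning of the nucleotide pool 15 fell and 1 rose (median -1.64). Over all tested genes 37.2% fell and 34.4% rose (71.6% called). CMPK2, a mitochondrial UMP and CMP kinase induced by interferon, went from 37.7 and 28.4 CPM to 0.657 and 1.09 CPM (-5.25 ± 0.30, adjusted p = 0.000298). ITPA, which removes inosine triphosphate, was at -3.42 ± 0.16 and DCTPP1, which degrades dCTP and modified forms of it, at -2.29 ± 0.17 (adjusted p = 0.000292 and 0.000393). Of 6 tested transporters 3 fell and 1 rose (median -0.87), beside the same shares of all tested genes. SLC29A1, the main equilibrative nucleoside carrier, went from 323 and 244 CPM to 28.2 and 29.7 CPM (-3.29 ± 0.19, adjusted p = 0.000298), and SLC29A3 of the lysosome was at -2.49 ± 0.32 (adjusted p = 0.0019). SLC25A36, a mitochondrial pyrimidine nucleotide carrier, rose from 40.7 and 53.3 CPM to 142 and 137 CPM (1.57 ± 0.16, adjusted p = 0.00102). Genes that rise among mitochondrial steps, DGUOK and SLC25A36, stood beside others that fell, DHODH, NME4 and CMPK2.

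**Figure D4:**
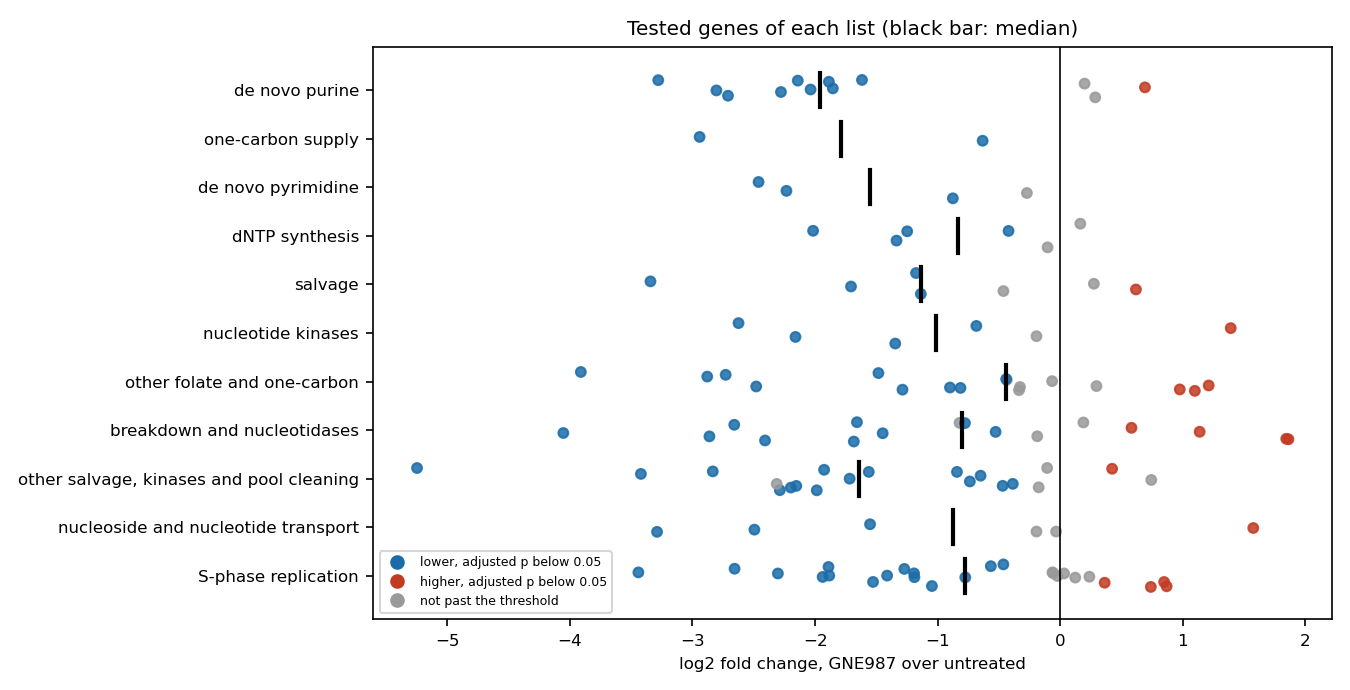
Log2 fold change of each tested gene, one row per group of members and per further list, with the median as a black bar. Points spread on both sides of 0 in most rows, and medians run from -1.96 for de novo purine synthesis to -0.44 for the further folate and one-carbon genes.

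The authors' deposited table lists an adjusted p below 0.05 for the same number of members, 26 lower and 3 higher, beside 19.6% lower and 17.7% higher of all its genes. Those shares count all 26733 genes, including 10823 below the filter on low counts. Every member with a row passed that filter, so the shares and the member counts are not directly comparable. Its log2 fold changes differed from the edgeR values of the members by at most 0.0059.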

How the data were processed

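Per the labels, RNA was extracted with TRIzol and made into libraries with the Illumina TruSeq RNA kit, which does not mark the strand. HISAT2 2.2.0 and hg38 are named in the submitters' processing notes; no source used here names the counter, the annotation or its strand setting. The authors deposited raw counts per gene, a normalized signal (counts over a size factor), FPKM values, a log2 fold change and p-values with adjusted p-values, judged from column names and values. Tests used the raw counts. The FPKM served for levels between genes, and the signal was not used.

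Of 26733 genes 15910 passed filterByExpr (minimum count 10, minimum total 15). They were tested with edgeR 4.0.16 in R 4.3.3 (TMM, estimateDisp, glmQLFit, glmQLFTest; 2 residual degrees of freedom), with Benjamini-Hochberg adjustment across the tested genes. The SE is the log2 fold change divided by the square root of F. The procedure was tested on simulated data in which few genes changed, as many up as down. Most genes were called here, so that simulation cannot decide between the scalings. Counting floors of 3 counts equal 0.135 to 0.217 CPM. Coordinates are from GENCODE 29. The members and lists were chosen with earlier results of these data known, and named further genes are the 3 with the smallest p of each list. Alternatives were RLE scaling, library size alone, no filter, DESeq2 1.42.0, the replicate number as a block, raw counts for the ratios, and each library left out.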

Additional observations from a re-analysis of the deposited data

How the results depend on the processing

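The number of called members was 29, and between 28 and 31 with RLE scaling, library size alone, no filter, DESeq2 or the replicate number as a block, and between 24 and 33 with a library left out. Of all tested genes 11387 were called, 9801 with the replicate block, and between 6070 and 12921 with a library left out. The deviations of same-numbered libraries from their group means correlated with r = -0.0039. With 2 libraries per group this value cannot show whether same-numbered samples share a culture or batch. The replicate block gave 28 called members and lost the call of DUT. The number of members called higher was 3, but 1 with library size alone, and between 1 and 6 with a library left out. The 2 called one-carbon members became 1 or stayed 2 with a library left out. With library size alone PRPS2 (-0.17), PPAT (-0.086), RRM2B (-0.21) and TK1 (-0.10) changed sign, none of them called. With a library left out, the 12 further folate genes called were between 7 and 15, and the 13 breakdown genes between 8 and 15. The cause of the lost calls was not tested. A group left with 1 library is assumed to vary like the other group. Raw counts scattered more between the untreated libraries than between the GNE987 ones (chi-square per degree of freedom 36.0 and 4.76). A fit without an untreated library uses the scatter of the GNE987 pair alone, so passing there is no added support for a change. Low counts limit ADSL most, with 22 in 1 library.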
